A study of Mus musculus with 9 samples.

Results

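The genes described here are 49 that work in DNA replication or in mitosis, measured in the whole mammary gland of the mouse at 4 stages of its development. They were taken as a list of symbols, of which 22 act in S phase and 27 in mitosis, and each gene was represented by the brightest probe set that carries its symbol alone, by mean signal over all 9 arrays. Older symbols were read as their present ones, such as Cdc2a for Cdk1. Of the 49 genes, 45 had such a probe set, out of 8251 genes on the MG-U74Av2 array, and 44 passed the filter on low signal, out of 7091 genes. No probe set with a single symbol was found for Pole, Tyms, Ccnb1 and Bub1b, and Mcm6, a helicase subunit, lay below the floor of 20 signal units on every array and was not tested. Of the 44 genes, Tacc3 had a stage mean above 20 at pregnancy alone and Bub1 at lactation alone, so that both had to differ between stages to be tested.

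All animals were wild type C57BL/6J females, and each array held RNA of the inguinal (number 4) gland of 1 female. The virgin group was at puberty, at an age of 6 weeks (3 arrays), and the others were at day 14 of pregnancy (2 arrays), day 10 of lactation (2 arrays) and day 4 of involution, the regression of the gland after weaning (2 arrays). The ages of the pregnant, lactating and involuting females are not given in the sources used here. A whole gland holds epithelium, fat, blood, vessels and a lymph node, so that a change in the number of cells of a type cannot be told apart from a change of RNA per cell. Each array gives the signal of a probe set, in arbitrary units that are comparable between arrays but not between probe sets.

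In S phase a cell starts the MCM helicase, primes and copies both strands, and joins the fragments. It supplies itself with deoxynucleotides through ribonucleotide reductase and thymidine kinase. In mitosis the cyclin B and Cdk1 kinase, its partners Plk1 and the Aurora kinases, and spindle motors condense and separate the chromosomes, under a checkpoint that holds back the anaphase promoting complex. Transcription of the first set is known to depend on E2F factors at the start of S phase, while many mitotic genes are held down in resting cells and switched on late in the cycle through a CHR element beside CCAAT boxes. In the mammary gland, ducts grow at puberty, alveoli multiply during pregnancy, secretory cells fill the lactating gland and are cleared at involution.

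Before the genes themselves, some properties of the arrays bear on what follows. Correlations of log2 signal between arrays of a stage were 0.947 to 0.975, and between stages 0.724 to 0.935. The 3 puberty arrays carried much skeletal muscle RNA: the summed signal of 5 muscle genes was 6549 to 14731 at puberty, 91.3 to 799 at pregnancy, 97.8 to 144 at lactation and 132 to 310 at involution. The higher of the pregnancy values belongs to replicate 1. Of the epithelial markers, the luminal keratin Krt8 read 476 to 1473 on all arrays. Of the basal and myoepithelial markers, Krt5 and Krt14 read at most 32.6 and 25.5, at or near the floor, while Acta2 read 388 to 1919, Myh11 180 to 861, Cnn1 79.0 to 507 and Krt17 31.6 to 155. Levels of different probe sets are not comparable with one another.

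Replication and mitosis genes were highest at day 14 of pregnancy. The stage mean was highest at pregnancy for 39 of the 44 genes, against 17.9% of all 9783 probe sets tested, and for 32 of them both pregnancy arrays lay above all 7 others, against 7.09% of all probe sets. These 32 comprise 11 of 19 S phase genes and 21 of 25 mitosis genes. The lowest stage was lactation for 14 S phase genes and puberty for 4, and it was lactation for 11 mitosis genes and puberty for 11 (lactation was lowest for 35.3% of all probe sets and puberty for 25.1%). This difference between the roles was not tested. The 5 genes with another highest stage were Plk1, Bub1 and E2f1, with lactation (42.3% of all probe sets), and Rpa2 and Cenpa, with involution (23.1%). Over the 4 stages, limma's F test was passed by 28 of the 44 genes, 7 of the S phase and 21 of the mitosis genes, where 51.6% of all probe sets passed. Without Tacc3 and Bub1 it was passed by 26 of 42. The S phase genes that passed were Mcm4, Mcm7, Prim1, Pcna, Rrm1, Rrm2 and Chek1. The mitosis genes that did not pass were Ube2c, Aurkb, Incenp and Cenpa.

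**Figure D1:**
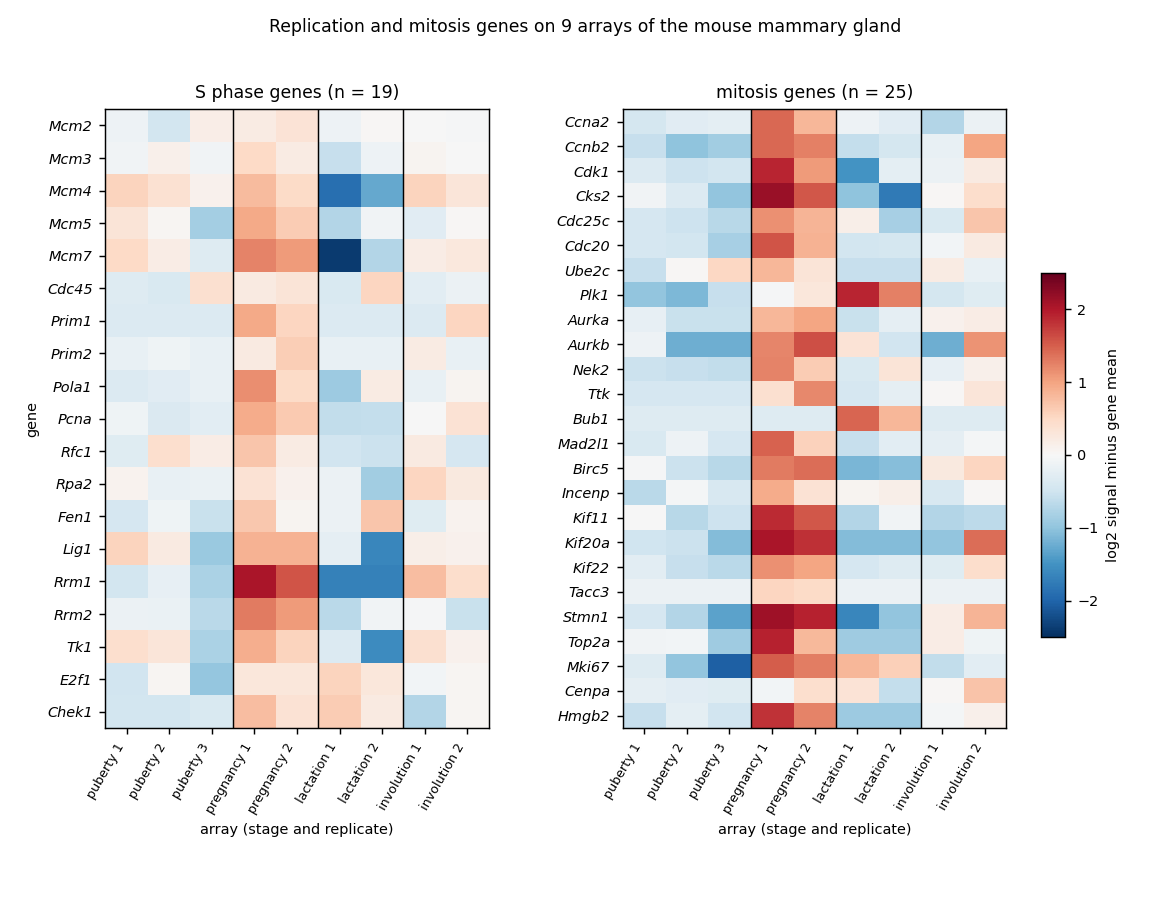
Log2 signal (floor of 20) minus the gene's mean over 9 arrays, for the 19 S phase and 25 mitosis genes tested; columns are arrays, ordered by stage, and the colour scale ends at 2.5 in both directions. The 2 pregnancy columns are red for nearly all genes, with Bub1 (at the floor there) an exception, and Plk1 and Bub1 are reddest at lactation.

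As a summary per array, the log2 signal of each gene was centred on its mean over the 9 arrays and averaged over the genes. For the 19 S phase genes this mean was -0.35 to -0.07 at puberty, 0.55 and 0.79 at pregnancy, -0.56 and -0.41 at lactation, and 0.05 and 0.07 at involution. For the 25 mitosis genes it was -0.65 to -0.36 at puberty, 0.96 and 1.22 at pregnancy, -0.35 and -0.32 at lactation, and -0.25 and 0.25 at involution. Both roles separated the pregnancy arrays from all others.

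Promoters are shown because the 2 roles differ in known control elements. RefSeq promoter windows of 300 bases, 250 before and 50 after each start on GRCm38.p6, were found for 40 of the 49 genes, not for Mcm4, Prim2, Pole, Ccna2, Cdc25c, Aurkb, Incenp, Kif20a and Stmn1. The letters searched on both strands were TTTGAA for the CHR element, CCAAT for the CCAAT box, and TTTGGCGC, TTTCCCGC and TTTCGCGC for the E2F site. A CHR match was present in 14 of 21 mitosis genes (66.7%), in 3 of 19 S phase genes (15.8%) and in 20.2% of all 27025 genes of the table. It began within 50 bases of the start in 13 of the 14 mitosis genes and in 1 of the 3 S phase genes, and in 28.3% of all genes with a match. A CCAAT match was present in 18 of 21 mitosis genes (85.7%), 13 of 19 S phase genes (68.4%) and 41.1% of all genes. An E2F match was present in 6 of 19 S phase genes (31.6%), in 1 of 21 mitosis genes (4.76%), which is Cdk1, and in 2.12% of all genes. Matches of letters are no evidence of binding in the gland, and the shares were not tested.

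Below, 6 of these promoters are given 5′ to 3′ in the direction of the gene, cut before the outermost start, with all matches in capitals. Mcm5 (chr8:75109349-75109467, plus strand) and Rrm2 (chr12:24708094-24708253, plus strand) stand for the S phase genes. Mcm5 carries a pair of E2F words on opposite strands, which share 4 bases, and a CCAAT box, and Rrm2 carries a CCAAT box only. Cdk1 (chr10:69352913-69353072, minus strand) carries both kinds, an E2F word and the CCAAT and CHR words (CCAAT reads ATTGG where it lies on the opposite strand). Cdc20 (chr4:118437344-118437503, minus strand), Kif11 (chr19:37376222-37376381, plus strand) and Top2a (chr11:99024200-99024349, minus strand) are mitosis genes with a CHR word, written TTCAAA on the opposite strand, close to the start.
Mcm5: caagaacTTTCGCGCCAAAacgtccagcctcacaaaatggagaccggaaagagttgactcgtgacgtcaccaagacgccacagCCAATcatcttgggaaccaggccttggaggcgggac
Rrm2: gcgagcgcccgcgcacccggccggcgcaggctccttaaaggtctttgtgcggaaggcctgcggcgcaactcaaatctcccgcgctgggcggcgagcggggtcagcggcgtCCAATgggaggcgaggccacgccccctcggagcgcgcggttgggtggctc
Cdk1: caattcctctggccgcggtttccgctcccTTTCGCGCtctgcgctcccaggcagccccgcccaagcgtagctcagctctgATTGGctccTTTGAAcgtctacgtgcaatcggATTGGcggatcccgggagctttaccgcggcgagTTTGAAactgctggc
Cdc20: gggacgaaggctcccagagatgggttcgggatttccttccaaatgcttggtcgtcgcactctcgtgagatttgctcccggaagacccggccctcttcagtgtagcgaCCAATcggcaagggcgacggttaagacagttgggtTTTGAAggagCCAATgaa
Kif11: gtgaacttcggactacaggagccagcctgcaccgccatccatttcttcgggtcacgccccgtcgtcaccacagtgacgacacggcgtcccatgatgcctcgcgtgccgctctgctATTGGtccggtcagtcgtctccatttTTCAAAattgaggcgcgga
Top2a: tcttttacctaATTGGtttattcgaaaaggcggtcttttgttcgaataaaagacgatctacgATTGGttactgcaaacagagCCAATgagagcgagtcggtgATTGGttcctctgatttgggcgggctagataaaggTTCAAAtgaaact

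**Figure D2:**
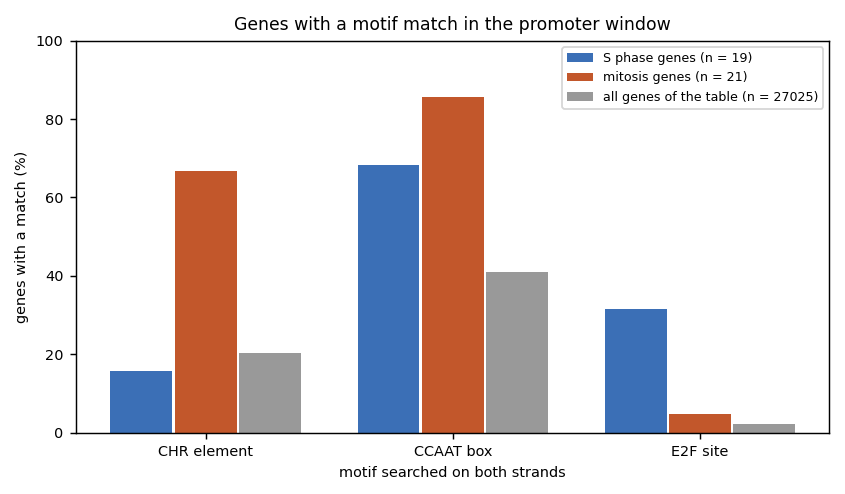
Share of genes (%) with a match to each motif in the 300-base promoter window, for S phase genes (n = 19), mitosis genes (n = 21) and all genes of the table (n = 27025). The CHR bar of the mitosis genes stands at 66.7% and the E2F bar of the S phase genes at 31.6%, against 20.2% and 2.12% of all genes.

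Among the S phase genes, Mcm4 and Mcm7, subunits of the helicase, were lowest at lactation. Mcm4 read 108, 96.1 and 79.3 at puberty, 127 and 102 at pregnancy, 19.1 and 30.5 at lactation, and 108 and 90.9 at involution. Both lactation arrays lay below all others, which overlapped one another, and 1 of them was under the floor of 20, so that folds against lactation are lower bounds. Mcm4 was at least 4.60-fold lower at lactation than at pregnancy (log2 change -2.20, SE 0.284, adjusted p = 0.000545) and at least 3.79-fold lower than at puberty (-1.92, SE 0.259, adjusted p = 0.000427), and at least 4.02-fold higher at involution than at lactation (adjusted p = 0.000691). Mcm7, of the same helicase, read 148, 119 and 83.9 at puberty, 248 and 219 at pregnancy, 12.1 and 62.7 at lactation, and 119 and 125 at involution. It too was lowest on the lactation arrays, 1 of them under the floor, at least 6.58-fold below pregnancy (log2 change -2.72, SE 0.479, adjusted p = 0.00250) and at least 3.22-fold below puberty (adjusted p = 0.0121). Neither passed the test between pregnancy and puberty (adjusted p = 0.598 for Mcm4 and 0.185 for Mcm7).

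The other helicase genes tested moved less between lactation and the other stages. Mcm5, whose promoter holds the paired E2F words shown above, read 254, 212 and 113 at puberty, 392 and 316 at pregnancy, 122 and 191 at lactation, and 167 and 208 at involution, so that pregnancy stood apart and the other stages overlapped. Its fall from pregnancy to lactation was called (log2 change -1.20, SE 0.373, adjusted p = 0.0309), but a dimmer probe set of the gene went the other way, as described further on. Mcm3 was also lower at lactation than at pregnancy (-0.70, SE 0.215, adjusted p = 0.0298). Mcm3 and Mcm5 did not pass the F test over the stages (adjusted p = 0.103 and 0.0802). Mcm2 (adjusted p = 0.414) and Cdc45 (adjusted p = 0.630), which joins the helicase when an origin fires, did not pass it either.

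Among genes of priming and synthesis, Pcna and Prim1 rose from puberty to pregnancy. Pcna, the sliding clamp of the polymerases, read 230, 193 and 208 at puberty, 471 and 392 at pregnancy, 161 and 165 at lactation, and 247 and 318 at involution. The 4 stages did not overlap on any array, in the order lactation, puberty, involution, pregnancy. Pcna was 2.05-fold higher at pregnancy than at puberty (log2 change 1.04, SE 0.161, adjusted p = 0.00541), 2.64-fold lower at lactation than at pregnancy (-1.40, SE 0.176, adjusted p = 0.000480), and 1.72-fold higher at involution than at lactation (adjusted p = 0.00691), whereas the neighbours lactation and puberty (adjusted p = 0.0926), puberty and involution (0.167) and involution and pregnancy (0.0718) were not told apart by limma's test. Prim1, the catalytic primase subunit, read 9.90, 6.43 and 10.8 at puberty, 49 and 36.5 at pregnancy, 3.95 and 5.30 at lactation, and 17.2 and 36.6 at involution. All puberty and lactation arrays were under the floor of 20, so that Prim1 at pregnancy was at least 2.11-fold higher than at puberty (adjusted p = 0.0252) and than at lactation (adjusted p = 0.0129). Prim2, its partner, read 19.5, 21.1 and 12.1 at puberty, 26.5 and 35 at pregnancy, 5.09 and 3.29 at lactation, and 26.4 and 15.6 at involution. Its signal stayed close to the floor throughout, and pregnancy exceeded lactation at least 1.52-fold (adjusted p = 0.0302). Prim2 did not pass the F test (adjusted p = 0.0584).

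Of the remaining synthesis genes, Pola1, the polymerase that extends the primer, was lower at lactation than at pregnancy (log2 change -1.17, SE 0.374, adjusted p = 0.0342), as was the clamp loader subunit Rfc1 (-0.96, SE 0.328, adjusted p = 0.0448). Lig1, the ligase that joins Okazaki fragments, read 92.2, 72.5 and 32.7 at puberty, 114 on both pregnancy arrays, 53.5 and 15.7 at lactation, and 69.2 and 67.6 at involution. Pregnancy lay above the other arrays, and the fall to lactation, where 1 array was under the floor, was called (-1.80, SE 0.548, adjusted p = 0.0283). Rpa2, a subunit of the single-strand binding protein, was higher at involution than at lactation (0.90, SE 0.277, adjusted p = 0.0272). The flap endonuclease Fen1 did not pass the F test (adjusted p = 0.218). Neither did Pola1 (adjusted p = 0.0693), Rfc1 (0.136), Lig1 (0.0968) and Rpa2 (0.0754).

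Both subunits of ribonucleotide reductase were highest at pregnancy, and they differed in the other stages. Rrm1, the large subunit, read 46.8, 56.1 and 37.4 at puberty, 266 and 192 at pregnancy, 9.97 and 11.7 at lactation, and 111 and 88 at involution. The 4 stages did not overlap, and both lactation arrays were under the floor. Rrm1 was 4.89-fold higher at pregnancy than at puberty (log2 change 2.29, SE 0.258, adjusted p = 0.00140), at least 11.3-fold lower at lactation than at pregnancy (adjusted p = 6.64e-05), at least 4.94-fold higher at involution than at lactation (adjusted p = 0.000335), and passed the test in all 6 comparisons of stages. Rrm2, the small subunit, read 35.1, 34.5 and 24.3 at puberty, 95.4 and 80.9 at pregnancy, 24.3 and 36.6 at lactation, and 38.2 and 26.4 at involution. Pregnancy stood apart while the other 3 stages overlapped. Rrm2 was 2.84-fold higher at pregnancy than at puberty (1.51, SE 0.282, adjusted p = 0.0108), 2.95-fold lower at lactation (-1.56, SE 0.309, adjusted p = 0.00436) and 2.77-fold lower at involution (-1.47, SE 0.309, adjusted p = 0.0274) than at pregnancy. Rrm2 at involution against lactation gave a log2 change of 0.09 (SE 0.309), where Rrm1 gave 2.31 (SE 0.283). The difference between the subunits was not tested.

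Tk1, the salvage kinase for thymidine, read 162, 149 and 69.7 at puberty, 228 and 177 at pregnancy, 95.3 and 40.7 at lactation, and 160 and 130 at involution. It was called lower at lactation than at pregnancy (log2 change -1.69, SE 0.480, adjusted p = 0.0217), but did not pass the F test (adjusted p = 0.0685). The regulators E2f1 and Chek1 were not called between pregnancy and lactation (log2 change 0.14 and -0.14). Chek1, the kinase of the replication checkpoint, read 23.9, 24.2 and 25.3 at puberty, 56.6 and 42.3 at pregnancy, 51.3 and 38.5 at lactation, and 18.6 and 34.1 at involution. It was 2.0-fold higher at pregnancy (1.0, SE 0.265, adjusted p = 0.0443) and 1.82-fold higher at lactation (0.86, SE 0.265, adjusted p = 0.0257) than at puberty, and pregnancy and lactation overlapped. E2f1, the transcription factor that opens S phase, was higher at lactation than at puberty (0.88, SE 0.289, adjusted p = 0.0334), but did not pass the F test (adjusted p = 0.0891). Under alternative processing and left-out arrays, this E2f1 call held in 6 of 19 settings. The Chek1 calls against puberty held in 7 of 20 at pregnancy and 11 of 20 at lactation.

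**Figure D3:**
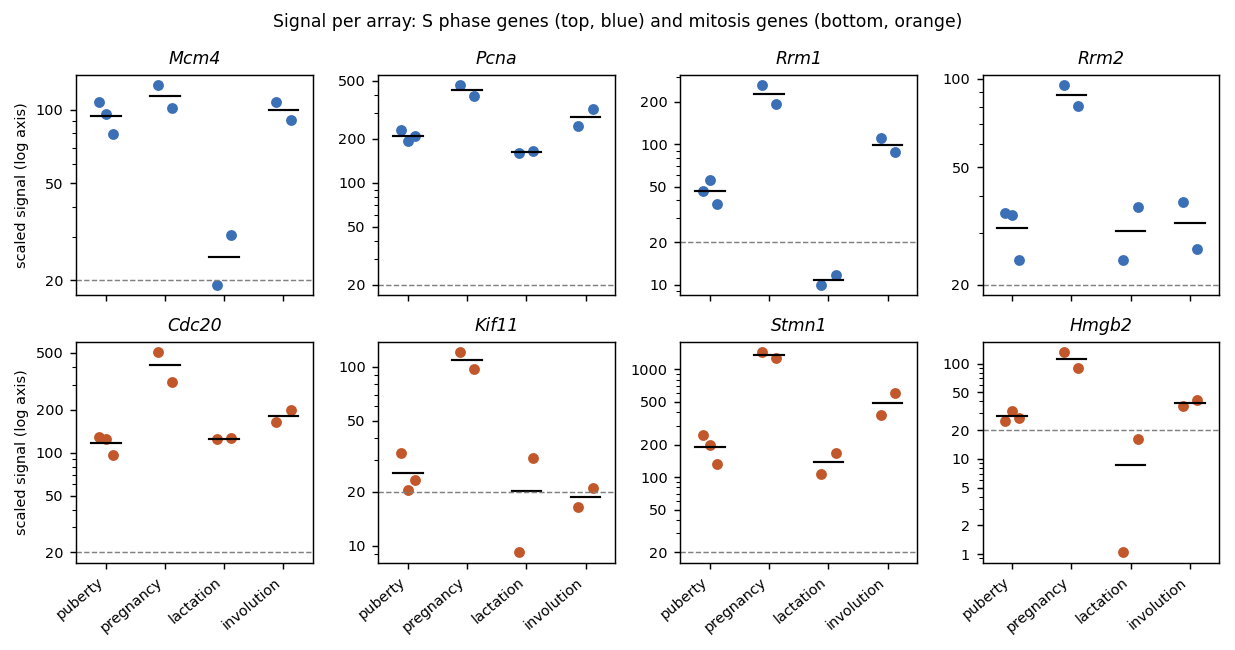
Scaled signal on each array (points, log axis) and stage mean (line) for 4 S phase genes and 4 mitosis genes, with the floor of 20 dashed. Pregnancy is highest in all 8 panels, and the lactation mean is under the floor for Rrm1 and Hmgb2.

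Among the mitosis genes, those of cyclins, Cdk1 and its regulators were higher at pregnancy. Ccna2, Ccnb2, Cdk1, Cks2 and Cdc25c all rose from puberty to pregnancy, 2.74-fold to 4.99-fold, and all fell from pregnancy to lactation. Cks2, a small subunit that binds the kinase, read 64.8, 54.1 and 34.5 at puberty, 305 and 200 at pregnancy, 34.1 and 5.41 at lactation, and 70.2 and 93.3 at involution. No 2 stages overlapped, and 1 of the 2 lactation arrays was under the floor. Cks2 was 4.99-fold higher at pregnancy than at puberty (log2 change 2.32, SE 0.361, adjusted p = 0.00551), at least 9.46-fold lower at lactation than at pregnancy (-3.24, SE 0.396, adjusted p = 0.000425), and at least 3.10-fold higher at involution than at lactation (adjusted p = 0.00992). Cdk1, the kinase itself and the 1 of the 21 mitosis genes searched with an E2F word, read 77.3 to 87.9 at puberty and 412 and 231 at pregnancy, a rise of 3.77-fold (1.91, SE 0.376, adjusted p = 0.0130). Ccnb2, a B-type cyclin, rose 4.49-fold (adjusted p = 0.00348), and its involution arrays read 251 and 569, the second of them near the pregnancy values of 773 and 687.

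The activator of the anaphase promoting complex, Cdc20, whose CHR word is shown above, read 128, 125 and 96.0 at puberty, 507 and 313 at pregnancy, 124 and 126 at lactation, and 164 and 199 at involution. Pregnancy was highest and involution next, and puberty and lactation overlapped. Cdc20 was 3.45-fold higher at pregnancy than at puberty (log2 change 1.79, SE 0.231, adjusted p = 0.00257), 3.19-fold lower at lactation (-1.67, SE 0.253, adjusted p = 0.00119) and 2.20-fold lower at involution (-1.14, SE 0.253, adjusted p = 0.0331) than at pregnancy. Ube2c, the ubiquitin-conjugating enzyme of that complex, was at least 2.22-fold lower at lactation than at pregnancy (adjusted p = 0.0263). It was not called between pregnancy and puberty (adjusted p = 0.299) and did not pass the F test (adjusted p = 0.0926).

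Of the mitotic kinases, Aurka, Nek2, Ttk and Plk1 were higher at pregnancy than at puberty. Aurka, at the spindle poles, with 2 puberty arrays and 1 lactation array under the floor, rose at least 2.55-fold from puberty to pregnancy (log2 change 1.35, SE 0.188, adjusted p = 0.00348) and fell at least 2.47-fold to lactation (adjusted p = 0.00151). Nek2, of the centrosome, and Ttk, of the spindle checkpoint, rose likewise (adjusted p = 0.0107 and 0.0117). Aurkb read 12.9 to 42.7 at puberty and 109 and 144 at pregnancy, but with involution arrays at 16.9 and 102 its spread was wide and no comparison of it was called. The brightest probe set of Plk1 read 42.8, 38.7 and 56.8 at puberty, 82.6 and 103 at pregnancy, 318 and 202 at lactation, and 62.3 and 68.2 at involution. Both lactation arrays were above all others, while the other 2 probe sets of the gene were highest at pregnancy. On the brightest, Plk1 was 2.02-fold higher at pregnancy than at puberty (1.02, SE 0.267, adjusted p = 0.0429), a further 2.75-fold higher at lactation (1.46, SE 0.292, adjusted p = 0.00462) and 3.88-fold lower at involution than at lactation (adjusted p = 0.000908).

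Of the checkpoint genes, Bub1, a checkpoint kinase, read 1.62, 4.00 and 9.96 at puberty, 12.5 and 2.27 at pregnancy, 68.4 and 44.5 at lactation, and 1.95 and 3.23 at involution. It exceeded the floor on the lactation arrays only, at least 2.76-fold above pregnancy and above puberty. As Bub1 had to be high at lactation to be tested, its p-values are left out. The rise of Plk1 and Bub1 from pregnancy to lactation was not shared by their other probe sets. The second probe set of Plk1 read 123 at lactation, above 71.6 at puberty and 73.9 at involution, and neither difference was called. Mad2l1, the checkpoint inhibitor of Cdc20, read 51.7, 61.2 and 49.8 at puberty and 186 and 100 at pregnancy, a rise of 2.53-fold (log2 change 1.34, SE 0.287, adjusted p = 0.0191).

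Of the chromosomal passenger complex, which corrects attachments and leads into cytokinesis, Birc5 (survivin) read 42.9, 30.1 and 27.0 at puberty, 108 and 116 at pregnancy, 11.4 and 21.0 at lactation, and 51.8 and 63.8 at involution. No 2 stages overlapped, and 1 of the 2 lactation arrays was under the floor. Birc5 was 3.43-fold higher at pregnancy than at puberty (log2 change 1.78, SE 0.247, adjusted p = 0.00348), at least 5.46-fold lower at lactation than at pregnancy (-2.45, SE 0.271, adjusted p = 0.000271) and at least 2.81-fold higher at involution than at lactation (adjusted p = 0.00248). Incenp, its scaffold, rose 2.03-fold from puberty to pregnancy (adjusted p = 0.0471) and was not called between pregnancy and lactation (adjusted p = 0.177). It did not pass the F test (adjusted p = 0.0537). The second probe set of Incenp gave a log2 change of 0.42 from puberty to pregnancy, which was not called (adjusted p = 0.614).

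Spindle genes included the largest rise and the largest fall among the mitosis genes, both of Stmn1. Kif11, the motor that pushes the poles apart, read 33.0, 20.5 and 23.2 at puberty, 121 and 97.7 at pregnancy, 9.14 and 31.0 at lactation, and 16.5 and 21.0 at involution. Pregnancy stood apart and the others overlapped near the floor, with 1 lactation array and 1 involution array under it. Kif11 was 4.34-fold higher at pregnancy than at puberty (log2 change 2.12, SE 0.270, adjusted p = 0.00245), at least 4.37-fold lower at lactation (-2.13, SE 0.296, adjusted p = 0.000808) and at least 5.31-fold lower at involution (-2.41, SE 0.296, adjusted p = 0.00340). Stmn1 (stathmin), which destabilises microtubules, read 245, 199 and 131 at puberty, 1437 and 1258 at pregnancy, 107 and 167 at lactation, and 376 and 598 at involution. The order was pregnancy, involution, then puberty and lactation, which overlapped. Stmn1 rose 7.25-fold from puberty to pregnancy (2.86, SE 0.310, adjusted p = 0.00116), fell 10.0-fold to lactation (-3.33, SE 0.339, adjusted p = 0.000193) and rose 3.54-fold from lactation to involution (adjusted p = 0.00278). The study itself picked Stmn1 from arrays that include these, and its values are therefore not independent evidence of the course. Kif20a and Kif22 also rose to pregnancy (at least 6.23-fold, with 1 puberty array under the floor, and 2.96-fold, adjusted p = 0.0204 and 0.00489), and Tacc3, of the spindle poles, exceeded the floor at pregnancy only, with 32.2 and 30.9.

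Of the chromatin genes, Hmgb2, a DNA-bending protein, read 25.2, 31.6 and 26.9 at puberty, 132 and 89.1 at pregnancy, 1.04 and 16.2 at lactation, and 36.1 and 41.1 at involution. No 2 stages overlapped. Hmgb2 was 3.91-fold higher at pregnancy than at puberty (log2 change 1.97, SE 0.226, adjusted p = 0.00150), at least 5.43-fold lower at lactation than at pregnancy (adjusted p = 0.000188) and 2.82-fold lower at involution than at pregnancy (-1.49, SE 0.247, adjusted p = 0.0108). Top2a, which untangles chromosomes, read 18.0 to 35.5 at puberty and 141 and 65.2 at pregnancy, at least 3.28-fold more (adjusted p = 0.0191), and was under the floor on both lactation arrays. Mki67, the proliferation marker Ki-67, read 65.4, 41.4 and 18.4 at puberty, 235 and 200 at pregnancy, 145 and 124 at lactation, and 53.3 and 68.3 at involution. Its pregnancy and lactation arrays were above the rest, and 1 puberty array was under the floor. Mki67 was at least 5.73-fold higher at pregnancy than at puberty (2.52, SE 0.430, adjusted p = 0.00761) and at least 3.54-fold higher at lactation than at puberty (1.82, SE 0.430, adjusted p = 0.00775). The rise to pregnancy was not called on the second probe set of Mki67 (log2 change 0.20, adjusted p = 0.783). The difference between lactation and puberty was called there (1.28, adjusted p = 0.00614). Cenpa, the centromeric histone, was not called in any comparison (F test, adjusted p = 0.348).

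Set over all genes, the comparison of pregnancy with puberty asks whether the replication and mitosis programme differs between the alveolar growth of pregnancy and the ductal growth of puberty. At pregnancy 26 of the 44 genes were higher and 0 lower, 5 of 19 S phase genes (Prim1, Pcna, Rrm1, Rrm2 and Chek1) and 21 of 25 mitosis genes, where 6.20% of all probe sets were called higher and 5.22% lower. At an unadjusted p under 0.05, limma gave 32 higher and 0 lower. The median log2 change was 0.75 in the S phase genes (range 0.28 to 2.29) and 1.57 in the mitosis genes (0.00 to 2.86), beside 0.00 over all probe sets. The mitosis genes without a call were Ube2c, Aurkb, Bub1 and Cenpa. Leaving out Tacc3 and Bub1, 25 of 42 were higher. The count rests on both pregnancy arrays: it was 10 without pregnancy replicate 1 and 14 without replicate 2, with 0 lower in both, and 17 when probe sets of low signal were kept in the adjustment.

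Between pregnancy and lactation the genes fell. At lactation 32 of the 44 genes were lower, 13 S phase and 19 mitosis genes, where 19.7% of all probe sets were called lower, and 2 were higher, Plk1 and Bub1, where 21.6% were (41.2% in both directions). Of the 42 genes other than Tacc3 and Bub1, 31 were lower and 1 was higher. The median log2 change was -1.08 in the S phase genes and -1.43 in the mitosis genes, beside 0.07 over all probe sets. The 13 S phase genes were Mcm3, Mcm4, Mcm5, Mcm7, Pcna, Prim1, Prim2, Pola1, Rfc1, Lig1, Rrm1, Rrm2 and Tk1. Of these, Mcm3, Mcm5, Prim2, Pola1, Rfc1, Lig1 and Tk1 did not pass the F test. Under alternative processing and left-out arrays, the Mcm3 call held in 16 of 21 settings, and that of Mcm5 in 12 of 21. The counts were 15 of 20 for Prim2, 10 of 20 for Pola1, 10 of 19 for Rfc1, and 14 of 21 for Lig1 and for Tk1. This comparison shares the pregnancy arrays with that of pregnancy and puberty. The genes called lower were 22 with a floor of 50, and 24 when probe sets of low signal were kept in the adjustment. Their count also fell when a pregnancy or lactation array was left out. The S phase median was closer to 0 by 0.35, but among the genes above 100 signal units in some stage this difference was -0.02.

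Lactation and puberty, the stages with the lower levels, differed in single genes. At lactation 5 of the 44 genes were higher, where 26.1% of all probe sets were, and 3 were lower, where 21.8% were. Those higher were Chek1, E2f1, Plk1, Bub1 and Mki67. Those lower were Mcm4, Mcm7 and Rrm1. Fewer of these genes were thus called than of all probe sets (18.2% against 47.8%). Without Tacc3 and Bub1, 4 of 42 were higher and 3 lower. The median log2 change was -0.26 in the S phase genes and 0.10 in the mitosis genes. Without lactation replicate 1 the count was 5, and with a floor of 50 it was 4.

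From lactation to day 4 of involution 10 of the 44 genes were higher, a share of 22.7% that lies near the 22.1% of all probe sets, and 2 were lower, where 23.0% of all probe sets were. Those higher were Mcm4, Mcm7, Pcna, Rpa2 and Rrm1 of the S phase genes and Ccnb2, Cks2, Birc5, Stmn1 and Hmgb2 of the mitosis genes, and those lower were Plk1 and Bub1. Taken in both directions, 27.3% of the genes were called, against 45.1% of all probe sets. Of the 42 genes other than Tacc3 and Bub1, 10 were higher and 1 was lower. With a floor of 50 the count of calls was 7, and with a constant of 16 added in place of a floor it was 19. Without involution replicate 2 the genes called higher were 5 and those called lower 3.

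Against pregnancy, involution had 9 of the 44 genes lower and 0 higher, where 3.10% of all probe sets were called lower and 4.03% higher. They were Rrm1, Rrm2, Ccna2, Cks2, Cdc20, Kif11, Tacc3, Stmn1 and Hmgb2. Without Tacc3 and Bub1, 8 of 42 were lower. At an unadjusted p under 0.05, limma gave 26 lower and 0 higher. The median log2 change was -0.55 in the S phase genes and -0.99 in the mitosis genes. This count was 3 without pregnancy replicate 1 and 5 without replicate 2, 4 without involution replicate 1, 4 without puberty replicate 2, and 5 without either lactation array. It was 14 on the values as deposited and 4 when probe sets of low signal were kept.

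Against puberty, involution had 3 of the 44 genes higher, Rrm1, Ccnb2 and Stmn1, and 0 lower, where 4.39% of all probe sets were called higher and 7.48% in either direction. At an unadjusted p under 0.05, limma gave 9 higher and 0 lower. Rrm1 was 2.14-fold (adjusted p = 0.0367), Ccnb2 2.33-fold (adjusted p = 0.0447) and Stmn1 2.56-fold higher (adjusted p = 0.0337). The median log2 change was 0.18 in the S phase genes and 0.57 in the mitosis genes. The 3 calls depended on single arrays: the count was 0 without puberty replicate 3, without either pregnancy array, without either lactation array or without involution replicate 2, and 1 without puberty replicate 1 or 2.

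**Figure D4:**
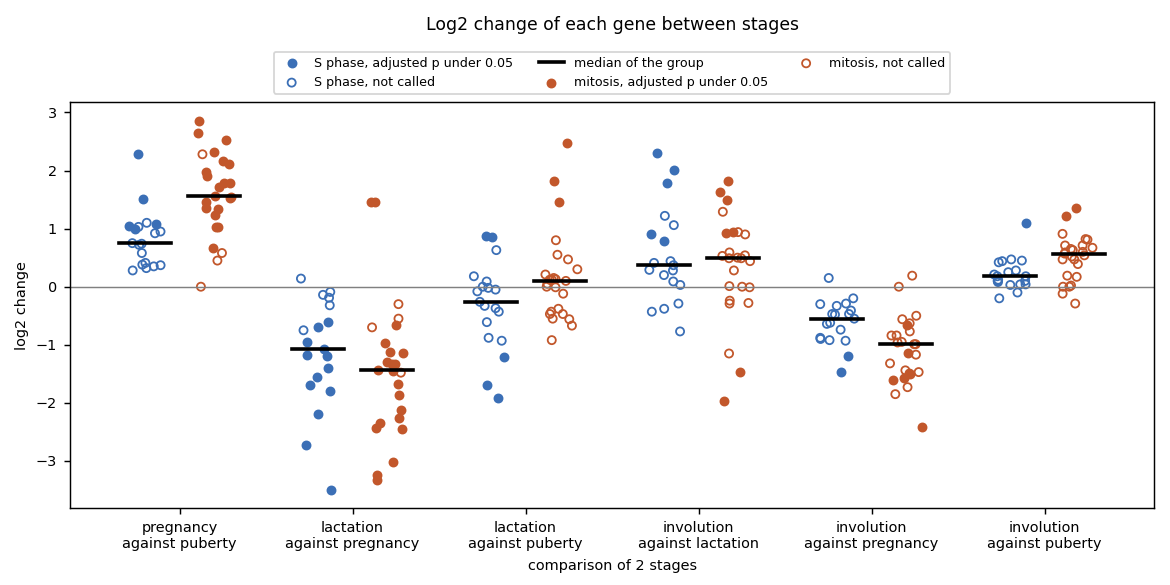
Log2 change of each gene in the 6 comparisons of 2 stages, S phase genes in blue and mitosis genes in orange, filled where the adjusted p was under 0.05, with the group's median as a black bar. At pregnancy against puberty the bars stand at 0.75 and 1.57, and at lactation against pregnancy at -1.08 and -1.43 with Plk1 and Bub1 the filled points above 0.

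For 6 genes the probe sets disagreed, and the choice of probe set decided their course. In Mcm5, Lig1 and Tk1 the brightest probe set fell from pregnancy to lactation, while the second gave a log2 change of 1.21, 1.76 (adjusted p = 0.000514) and 0.69 (adjusted p = 0.177). The second of Mcm5 had a stage mean above 20 at lactation alone (46.8). It had to be high there to be tested, so its p-value is left out. In Mki67 the second probe set was higher at lactation than at pregnancy (1.08, adjusted p = 0.0236), with stage means of 29.0 at puberty, 33.1 at pregnancy, 68.5 at lactation and 38.1 at involution. Plk1 has 3 probe sets tested. The second read 71.6, 167, 123 and 73.9 in the order of the stages, highest at pregnancy, and the third 23.8, 67.5, 7.12 and 23.5, with a fall from pregnancy to lactation (-1.68, adjusted p = 0.00785). All 3 were higher at pregnancy than at puberty (adjusted p = 0.0429, 0.0271 and 0.0303). In Bub1 the second probe set had a stage mean above 20 at pregnancy alone (34.1), with log2 changes of 0.77 from puberty and -0.77 to lactation. It had to be high at pregnancy to be tested, so its p-values are left out. On these second probe sets, Plk1 and Bub1 had the same highest stage as most of the genes. For Bub1 this is the stage through which the probe set was tested.

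**Figure D5:**
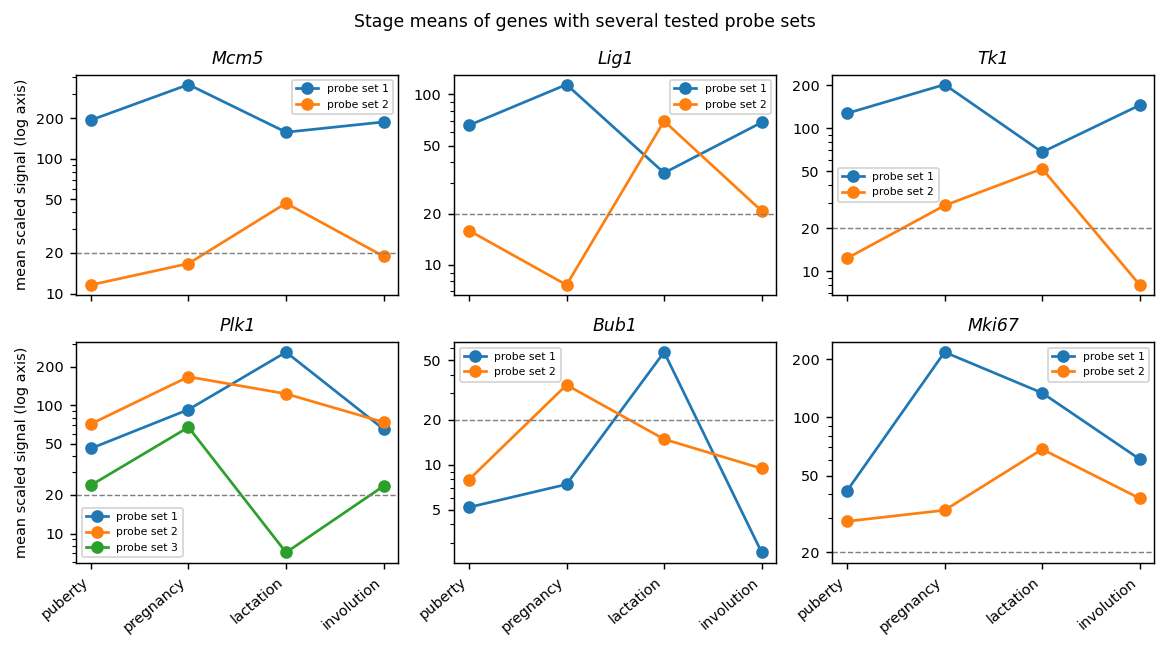
Mean scaled signal per stage (log axis, floor of 20 dashed) for each tested probe set of 6 genes, numbered by brightness. The second probe sets of Mcm5, Lig1, Tk1 and Mki67 and the first of Plk1 and Bub1 are highest at lactation, and all others at pregnancy.

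A wider list of cell cycle genes outside the 49 was read in the same way, 83 genes of which 66 had a probe set with a single symbol and 58 were tested. Nasp and Ncaph had a stage mean above 20 at pregnancy alone, Orc1 at lactation alone and Dut at involution alone. These genes had to differ between stages to be tested, and the counts below include them. The F test was passed by 42 of the 58, where 51.6% of all probe sets passed. At pregnancy against puberty 26 of the 58 were higher and 0 lower (6.20% and 5.22% of all probe sets), 9 of 33 replication genes and 17 of 25 mitosis genes, with medians of 0.57 and 1.26 on the log2 scale. At lactation against pregnancy 35 were lower and 2 higher, where 19.7% and 21.6% of all probe sets were (16 lower and both higher ones among the replication genes), with medians of -0.72 and -1.49. Kif4, a chromosome motor, read 13.9 to 22.3 at puberty, 60.5 and 87.0 at pregnancy, 9.96 and 22.1 at lactation, and 31.5 and 41.7 at involution. Anln, of the cytokinetic ring, Asf1b and Chaf1a, which place histones on new DNA, were also higher at pregnancy than at puberty and at lactation, with rises to pregnancy of 1.38, 0.93 and 1.32 and falls to lactation of -2.26, -1.26 and -1.71 on the log2 scale, all called. Pola2, the partner of Pola1, differed at lactation alone, 13.6 and 33.9 against 106 to 128 at puberty, 116 and 132 at pregnancy, and 84.6 and 88.6 at involution. The tubulin Tubb5 and the checkpoint gene Bub3 likewise fell at lactation (-2.08 and -1.13, adjusted p = 0.000243 and 0.000545) and were not called at pregnancy (adjusted p = 0.0908 and 0.300). Orc1, of the origin recognition complex, went the other way, with 38.5 and 56.0 at lactation and all other arrays under the floor. The count at pregnancy against puberty was 6 without pregnancy replicate 1 and 10 without replicate 2, and 17 without puberty replicate 1 or 2. At lactation against pregnancy 24 were called without pregnancy replicate 1.

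Markers of several cell types moved with the stages in which these genes were high or low. At pregnancy 6.20% of all probe sets were called higher and 5.22% lower than at puberty, and at lactation 21.6% were higher and 19.7% lower than at pregnancy, beside which the counts of markers are to be read. At pregnancy 4 of 9 luminal epithelial genes were higher and 1 lower than at puberty, and at lactation 1 (Elf5) was higher and 6 lower than at pregnancy. Their summed signal was 2113 to 3631 at puberty, 5754 to 6576 at pregnancy, 4471 to 5274 at lactation and 3423 to 5026 at involution. Elf5, a regulator of secretory differentiation, carried much of the later sums, which without it were 2078 to 3590 at puberty, 4660 to 5361 at pregnancy, 1712 to 2016 at lactation and 2989 to 4394 at involution. Of 6 basal or myoepithelial genes tested, 4 were higher, with sums of 781 to 988 at puberty, 3119 to 3371 at pregnancy, 2245 to 2255 at lactation and 1553 to 1723 at involution. Of 3 erythroid genes 2 were higher (sums of 2064 to 3710, 8513 to 10532, 1882 to 2266 and 243 to 372 in the same order). Lymphocyte markers were lower at pregnancy, 9 of 9 for T cells (sums of 991 to 1170 at puberty, 298 to 385 at pregnancy, 150 to 155 at lactation and 615 to 869 at involution) and 3 of 7 for B cells (2129 to 2357, 893 to 1214, 373 to 771 and 2946 to 3320). Without Jchain, which read 1218 and 1364 at involution, the B cell sums were 2066 to 2289, 811 to 1088, 269 to 593 and 1728 to 1956. All 5 muscle genes were lower at pregnancy than at puberty. Of 7 fat cell genes 3 were lower at pregnancy than at puberty and 6 lower at lactation than at pregnancy (sums of 10203 to 13616, 6128 to 9033, 1941 to 2393 and 11064 to 13125). Between puberty and pregnancy the median log2 change was -0.12 for 7 macrophage genes and -0.32 for 5 endothelial genes. Macrophage sums were 2418 to 2953, 2772 to 2819, 1465 to 2453 and 5555 to 7088, and endothelial sums 554 to 610, 459 to 469, 353 to 356 and 506 to 512. The part of these cell types in the levels of the replication and mitosis genes was not tested.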

How the data were processed

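RNA of the inguinal mammary gland of 9 female C57BL/6J mice was hybridized to MG-U74Av2 arrays, 1 array per animal. Stage and replicate of all 9 arrays come from their titles, and virgin was read as puberty. The deposited values are intensity on a linear scale, 1 per probe set, which the submitters' processing notes credit to MAS5 (version not stated there). The filtering and normalization per chip and gene in GeneSpring that the methods describe are not in the deposited intensities.

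Of 12488 probe sets, 66 controls were left out. Arrays were scaled to equal medians (factors of 0.948 to 1.06), a floor of 20 was set, and the values were put on the log2 scale. Printed signals are scaled but not floored. Folds are from floored log2 means, and are lower bounds ("at least") where an array of the lower stage lay under the floor. Probe sets with a mean above 20 in at least 1 stage were tested (9783, with 2639 left out). At the floor were 13.2% to 15.5% of probe sets per array, and the number of arrays limits the precision.

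limma 3.58.1 in R 4.3.3 (lmFit, eBayes with a trend) gave the F test and 6 contrasts of stages from 1 model over all 9 arrays, adjusted by Benjamini-Hochberg over all 9783 probe sets and called at 0.05. The model was first run on simulated data with the floor and filter steps switched off, so that run cannot speak to either step. Gene symbols come from the annotation of the platform (10833 probe sets with 1 symbol, 396 with several), updated through Entrez ID for 10817. Genes given in full were, per role, the 8 with the smallest F test p, those past the F test with another highest stage than most, and those whose probe sets differed in sign where 1 was called. Of the other cell cycle genes, the 4 with the smallest p per list were named. The members and lists were chosen with earlier results of these data known. Values were read with the R package data.table, version 1.17.8, and pandas 2.3.3 (python 3.11.15), and figures drawn with matplotlib 3.10.9. Alternatives covered scaling, floor, filter, variance model, replicate block, choice of probe set and leaving out each array.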

Additional observations from a re-analysis of the deposited data

How the results depend on the processing

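Over up to 21 alternatives, the 92 called changes of single genes gave 1894 values, of which 1548 kept their direction and side of the threshold, 341 kept the direction only and 5 reversed. The 25 changes kept under all alternatives include those of Birc5, Cdc20, Kif11, Rrm1 and Stmn1 from puberty to pregnancy. For genes with 1 probe set, among them Birc5, Cdc20 and Kif11, the alternative of the second brightest probe set repeats the reported value. It could not change there, and it is counted as kept. The second probe sets of Rrm1 and Stmn1 were not tested, so that both lack this alternative. The 5 reversals came with the second brightest probe set at lactation against pregnancy, with log2 changes of 1.21 for Mcm5, 1.76 for Lig1, 0.69 for Tk1, -0.44 for Plk1 and -0.77 for Bub1. Scaling alternatives reversed no called change and moved the median of all probe sets by less than 0.1 on the log2 scale.

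Without the filter on low signal, 17 genes were called at pregnancy against puberty (26 as reported), 4 at involution against pregnancy (9) and 0 at involution against puberty (3, with 8 at an unadjusted p under 0.05 in limma). With a floor of 50, 4 were called at lactation against puberty (8), 7 at involution against lactation (12) and 1 at involution against puberty. An added constant of 16 gave 19 at involution against lactation, the values as deposited gave 14 at involution against pregnancy, and the second brightest probe sets gave 1 at involution against puberty. Leaving out each array in turn gave 10 to 26 at pregnancy against puberty, 5 to 10 at lactation against puberty, 8 to 13 at involution against lactation, 3 to 10 at involution against pregnancy and 0 to 4 at involution against puberty. At lactation against pregnancy, 22 genes were called lower with a floor of 50 and 24 without the filter on low signal (32 as reported). That count also fell when a pregnancy or lactation array was left out. The cause of these moves was not tested.

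Of the other cell cycle genes, 27 (floor of 50) and 26 (filter of 100) passed the F test, against 42. At pregnancy against puberty, 14 were called with a floor of 50, no filter or a filter of 100, 17 with a floor of 1, and 6 to 21 with an array left out, against 26. At lactation against pregnancy, 21 were called with a filter of 100 and 24 to 36 with an array left out, against 37.

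The S phase median minus the mitosis median moved as follows. At pregnancy against puberty (-0.81) it was -0.93 with a floor of 1, -0.67 with an added constant, and -0.89 to -0.58 with an array left out. At lactation against pregnancy (0.35) it was 0.19 with an added constant, -0.02 with a filter of 100, 0.81 with second probe sets, and 0.22 to 0.53 with an array left out. At lactation against puberty (-0.35) it was 0.00 with a floor of 50, -0.48 with a floor of 1, -1.0 with a filter of 100, 0.02 with second probe sets, and -0.37 to -0.15 with an array left out. At involution against lactation (-0.12) it was 0.04 with a floor of 50, 0.58 with a filter of 100, -0.27 with second probe sets, and -0.24 to 0.25 with an array left out. At involution against pregnancy (0.45) it was 0.57 with quantile normalization, 0.70 with a filter of 100, and 0.23 to 0.61 with an array left out. At involution against puberty (-0.40) it was -0.14 with a floor of 50 and -0.53 to -0.16 with an array left out.

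Deviations of same-numbered arrays from their stage means correlated at -0.153 to 0.049. With 2 arrays in a stage the 2 deviations mirror each other, so these values cannot settle whether replicate numbers pair the samples. With the replicate number as a block, 14 genes were called at pregnancy against puberty, 5 at involution against pregnancy and 0 at involution against puberty (4 at an unadjusted p under 0.05), and of the other cell cycle genes 9 at pregnancy against puberty. Genes under the floor in a stage, such as Bub1, Tacc3 and Prim1, have only bounds there, and stages of 2 arrays leave little measure of the spread.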
